A study of Mus musculus with 19 samples.

Results

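Regulators of G protein signaling (RGS proteins) switch off heterotrimeric G proteins, the relays between G protein-coupled receptors and their effectors. The RGS domain speeds the hydrolysis of GTP on the Gα subunit, so that signaling by the receptor ends sooner. Small R4 proteins are little more than this domain, R7 proteins need the Gβ5 subunit to be stable, and the R12 group acts mostly on the Gi class. In sensory neurons, receptors of the Gi/o class, such as opioid receptors, dampen firing and transmitter release, and those of the Gq class excite. RGS proteins limit both.

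The 10 genes examined were Rgs2, Rgs3, Rgs4, Rgs5, Rgs7, Rgs8, Rgs10, Rgs12, Rgs14 and Rgs16, taken by name from the 12629 genes of the expression table. Values were found for 8 of them, 5 of the 6 R4 members (Rgs2, Rgs3, Rgs4, Rgs5 and Rgs16), the R7 member Rgs7 and 2 of the 3 R12 members (Rgs10 and Rgs12). Rgs8 (R4) and Rgs14 (R12) were not analysed here. The family was selected through Rgs2, which was chosen by its measured response to α9k1 after crush, and the question was whether its relatives share that response. Rgs2 is therefore described without a test in every comparison, and the comparison of α9k1-crush with GFP-crush is a description for all members.

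The 19 libraries were made from GFP-positive cells sorted by FACS from left cervical dorsal root ganglia (DRGs), 8 weeks after injection of AAV5 vectors. The groups were GFP-naive (5 libraries; AAV5-fGFP under a CMV promoter, uninjured roots), α9k1-naive (6 libraries; AAV5-α9-V5 under a CAG promoter with AAV5-kindlin1-GFP under a CMV promoter, uninjured roots), GFP-crush (4 libraries; AAV5-fGFP with dorsal root crush at the time of injection) and α9k1-crush (4 libraries; both α9k1 vectors with the crush). All groups thus carried a vector and a fluorescent protein. In the α9k1 groups the GFP tag sits on kindlin-1, so sorting selected for that vector and not for the α9 integrin vector. The study's methods describe male Lewis rats aged 2 months, while the sample labels give C57BL/6 mice, with no sex or age. Whether each library was 1 animal is not given in the labels, and the p-values measure the spread between these libraries.

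Expression is given as log2 values that the authors normalized for gene length and depth, and library depth ran from 36.4 to 87.6 M read pairs. The labels were checked through the delivered genes. Fermt1, which encodes kindlin-1, was 27.6-fold higher in α9k1-naive than in GFP-naive and 74.2-fold higher in α9k1-crush than in GFP-crush (adjusted p = 1.18e-08 and 0.000122). Itga9, the α9 integrin gene, was 3.30-fold and 45.6-fold higher (adjusted p = 0.0273 and 0.0381), although the lowest α9k1-naive library, at 2.38, lay within the GFP-naive range of 1.77 to 2.40. Both delivered genes also differed between the α9k1 groups, with Itga9 11.4-fold and Fermt1 3.18-fold higher in α9k1-crush than in α9k1-naive (adjusted p = 0.0404 and 0.0591). All 12 neuron markers had values, with Uchl1 or Nefl the highest in each group. The 8 Schwann cell markers summed to 12.3 to 14.1 on the log2 scale, close to the 12.6 to 14.3 of the neuron markers, so the sorted samples held glial RNA as well. In such bulk samples, fewer cells of a type and less RNA per cell cannot be told apart.

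Each comparison was fitted with limma over all genes, with 3 covariates that summarise the sequencing and alignment metrics of the libraries, and genes with an adjusted p (Benjamini-Hochberg) under 0.1 were called. Fits without the covariates are given beside these, since the metrics differ between the groups. The third covariate had 74.5% of its variance between groups, and the variance of the α9k1-crush versus GFP-crush contrast was 3.11 times the residual variance with the covariates and 0.5 times without.

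Rgs2 encodes a small R4 protein that acts chiefly on Gαq and is known as a rapidly induced gene. It was higher in both α9k1 groups than in both GFP groups. The GFP-naive libraries had 4.16, 4.75, 5.05, 4.51 and 4.30 on the log2 scale, and the GFP-crush libraries had 4.56, 4.04, 4.78 and 4.53. The α9k1-crush libraries had 5.74, 6.14, 5.23 and 5.92, and the 6 α9k1-naive libraries ran from 5.28 to 6.00 with a median of 5.51. Every α9k1 library thus lay above every GFP library, while naive and crushed libraries overlapped within each vector.

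In the fit, the level of Rgs2 was 2.38-fold higher in α9k1-naive than in GFP-naive (log2FC = 1.25 ± 0.24, SE) and 4.56-fold higher in α9k1-crush than in GFP-crush (log2FC = 2.19 ± 0.52). Without the covariates the log2 differences were 1.02 and 1.28. The crush-related differences were small beside these, with log2FC = -0.39 ± 0.24 in the GFP groups and 0.55 ± 0.43 in the α9k1 groups. The study clustered genes by k-means, and a list that its authors curated by hand from annotation terms of Cluster 1, not the whole cluster, was the source of Rgs2. Over the 88 genes of that list analysed here, Rgs2 had the largest α9k1-crush versus GFP-crush value with the covariates, ahead of Mief2 at 1.20, and the median gene was at 0.54. Without the covariates Rgs2 ranked 16 in this list, and Tppp led at 1.78. Leaving out each library in turn gave 1.74 (without GFP-crush replicate 2) to 2.80 (without α9k1-naive replicate 6) after crush, and 1.16 to 1.83 in naive ganglia, where the highest value again came without α9k1-naive replicate 6.

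The sequences upstream of Rgs2 and of Rgs16, the member whose values came nearest to those of Rgs2 over all libraries, are shown for reference. They are the 250 bases before the start site in mouse RefSeq (GRCm38.p6), printed 5′ to 3′ on the strand of the gene. The Rgs2 stretch is chr1:144004150-144004399 on the minus strand and that of Rgs16 is chr1:153740103-153740352 on the plus strand. Capitals mark matches to the motifs searched.
Rgs2: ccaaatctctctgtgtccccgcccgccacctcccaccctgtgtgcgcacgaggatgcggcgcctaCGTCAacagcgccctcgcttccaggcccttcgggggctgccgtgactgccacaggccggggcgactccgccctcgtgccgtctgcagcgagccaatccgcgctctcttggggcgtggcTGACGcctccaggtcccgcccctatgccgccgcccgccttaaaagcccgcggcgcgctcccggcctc
Rgs16: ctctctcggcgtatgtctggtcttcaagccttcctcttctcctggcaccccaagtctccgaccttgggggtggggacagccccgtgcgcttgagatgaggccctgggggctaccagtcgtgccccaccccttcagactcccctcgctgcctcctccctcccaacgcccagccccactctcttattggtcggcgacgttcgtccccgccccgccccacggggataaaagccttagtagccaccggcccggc

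The motifs searched on both strands, from 250 bases before to 50 after the start site, were the cAMP response element CRE (TGACGTCA), its half-site (TGACG), AP-1 (TGANTCA), the E-box (CACGTG) and the TATA box (TATAAA). A half-site lies within each full CRE. Rgs2 held 2 half-sites, which began at position -67 on the strand of the gene and at -185 on the opposite strand, counted from the start site. Rgs16 held no match. Half-sites occurred in 20.8% of 32851 promoters of this length, the full CRE in 1.79%, AP-1 in 7.81%, the E-box in 7.15% and the TATA box in 13.6%. Promoter entries matched 9 of the 10 genes. Half-sites were also found for Rgs4 (2 matches), Rgs8 and Rgs12, neither Rgs5 nor Rgs10 had a match to any motif, and these matches are descriptions of letters in a mouse sequence.

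**Figure D1:**
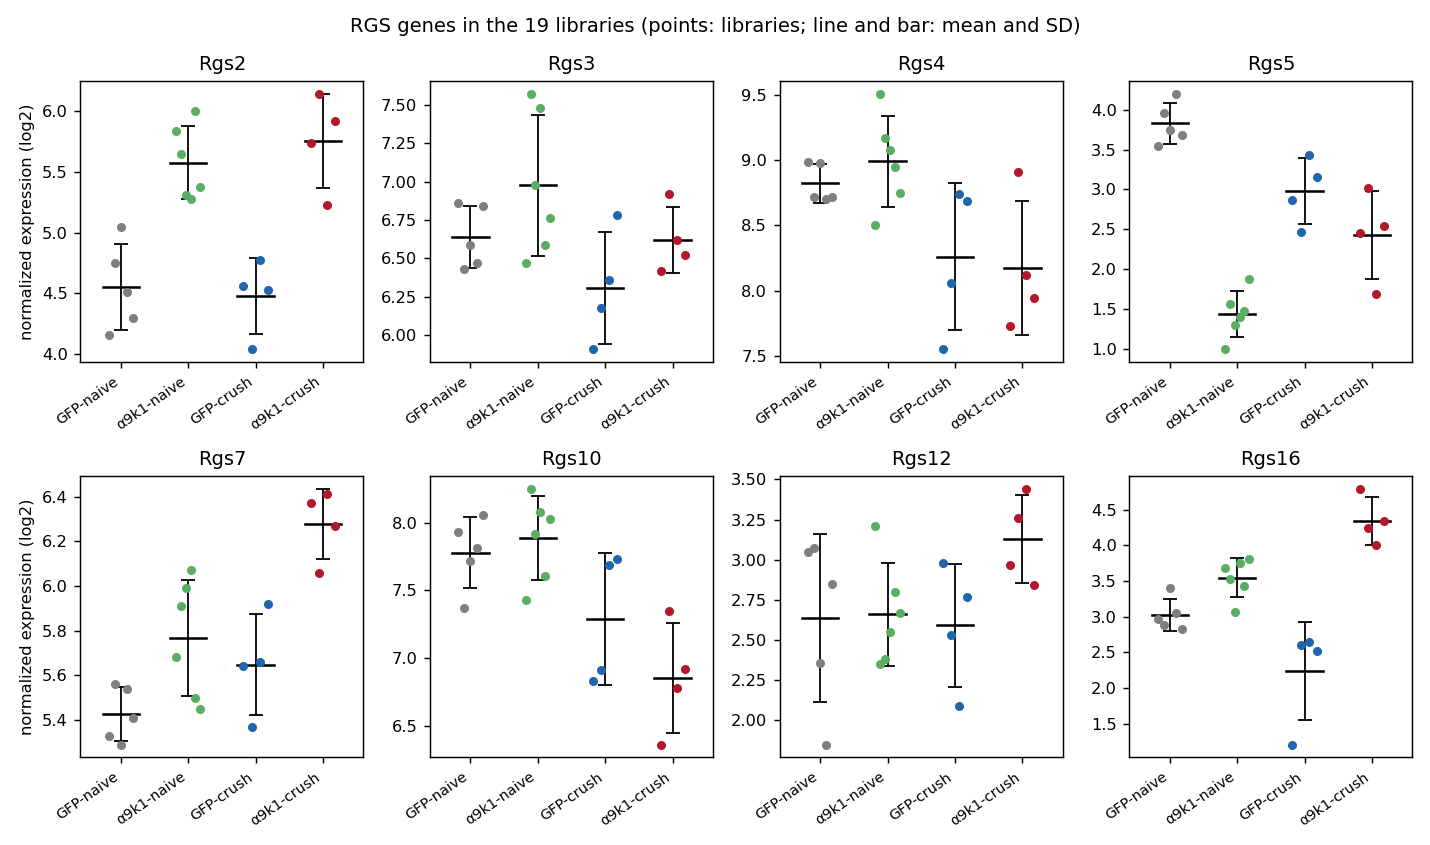
Normalized expression (log2, vertical axis) of the 8 RGS genes in each of the 19 libraries, by group, with 1 point per library and the mean and SD as a line and bar. Rgs2 lies higher in every α9k1 library than in every GFP library, Rgs5 is lowest in α9k1-naive, and Rgs16 is highest in α9k1-crush.

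The first question was whether the family shared the α9k1 response seen after crush. In α9k1-crush versus GFP-crush, the comparison that chose Rgs2, none of the other 7 members passed the threshold with the covariates in limma. Over all genes 0.728% were higher and 0.182% lower. Without the covariates 3 of the 7 were higher (Rgs7, Rgs12 and Rgs16) and 1 was lower (Rgs5), where 29.6% and 28.3% of all genes passed. Of the 7, groups did not overlap for Rgs7 and Rgs16, as for 40.8% of all genes. The median log2FC of the 7 was 0.15, against 0.01 over all genes.

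Rgs16, an R4 member that acts on Gi and Gq subunits, had the largest value of the family in this comparison. The α9k1-crush libraries had 4.79, 4.24, 4.0 and 4.34, against 1.21, 2.60, 2.64 and 2.52 in GFP-crush. The fitted difference was 5.79-fold (log2FC = 2.53 ± 0.67), beside 2.19 ± 0.52 for Rgs2, and it did not pass the threshold. Leaving out each library in turn gave 2.15 to 3.27, with the highest value without GFP-crush replicate 2. Without the covariates it was 2.10. Replicate 1 of GFP-crush lay far below the other 3 libraries of its group, and the fit without it was the only 1 of 19 such fits in which Rgs16 passed the threshold.

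Rgs7 was higher in all 4 α9k1-crush libraries (6.37, 6.06, 6.41 and 6.27) than in any GFP-crush library (5.64, 5.37, 5.66 and 5.92), with log2FC = 0.68 ± 0.34. For 2 members the sign turned with the covariates. Rgs5 had log2FC = 0.85 ± 0.50 with them and -0.56 without, and Rgs12 had -0.39 ± 0.63 and 0.53. The other 3 members lay near zero beside their errors, with 0.15 ± 0.53 for Rgs3, -0.22 ± 0.69 for Rgs4 and -0.14 ± 0.54 for Rgs10. The 95% interval of the Rgs4 difference ran from -1.68 to 1.25.

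**Figure D2:**
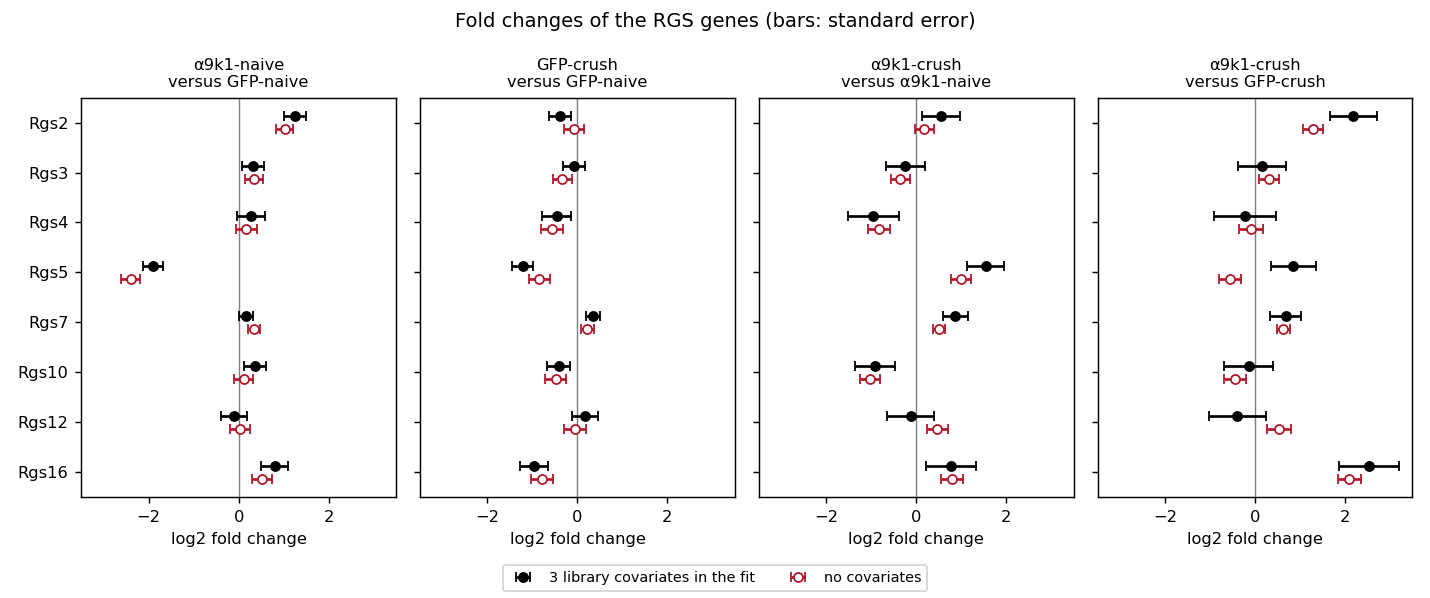
Log2 fold changes (horizontal axis) of the 8 RGS genes in the 4 comparisons, with standard errors as bars, from fits with 3 library covariates (filled) and without (open). In α9k1-crush versus GFP-crush, Rgs2 and Rgs16 lie to the right in both fits, with 2.19 and 2.53 in the filled points, and Rgs5 and Rgs12 change sign between the fits.

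Without injury, α9k1 was accompanied by a rise of Rgs16 and a fall of Rgs5 among the 7 members tested, and the other 5 did not pass. The background over all genes was 11.4% higher and 17.6% lower. Without the covariates Rgs7 joined the higher genes (adjusted p = 0.0402), where 16.5% of all genes were higher and 29.5% lower. Only Rgs5 of the 7 had groups that did not overlap, as did 21.7% of all genes. The shares called are thus near the background.

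Rgs16 rose 1.74-fold in α9k1-naive (log2FC = 0.80 ± 0.31, adjusted p = 0.0801), from 2.97, 2.88, 3.40, 3.05 and 2.83 in GFP-naive to between 3.07 and 3.81 with a median of 3.61. The groups overlapped by a single α9k1-naive library below the highest GFP-naive library. The exact two-sided permutation test of the unadjusted values gave p = 0.0087, 1 of 21 such tests over the 7 members. Leaving out each library in turn gave 0.71 to 0.91, and the call was lost in 8 of 19 such fits. These left out any GFP-naive library but replicate 3, replicate 4 or 6 of α9k1-naive, or replicate 3 of a crush group.

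Rgs5, an R4 member best known as a marker of pericytes, the mural cells of small vessels, fell 3.76-fold in α9k1-naive (log2FC = -1.91 ± 0.23, adjusted p = 3.04e-05). The GFP-naive libraries had 3.55, 3.96, 3.75, 4.20 and 3.68, and the 6 α9k1-naive libraries ran from 0.99 to 1.87 with a median of 1.43. The gap between the groups was wider than the range within either. The exact permutation p was 0.0043, which is the lower limit for 5 against 6 libraries, and the fall was called in 19 of 19 fits that left out a library. Rgs5 was among the low genes of the table, at the 9.25th percentile of mean level.

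The pericyte and smooth muscle markers moved with Rgs5. In α9k1-naive, 5 of the 8 measured markers were lower and none higher, led by Higd1b, Kcnj8 and Vtn with log2FC = -2.95 ± 0.53, -2.57 ± 0.23 and -2.40 ± 0.22. Their summed level ran from 6.89 to 7.49 in GFP-naive, 5.02 to 6.21 in α9k1-naive, 5.37 to 6.67 in GFP-crush and 5.10 to 6.09 in α9k1-crush. Over the 19 libraries Rgs5 and this sum had r = 0.83, and r = 0.81 after the group means were removed, where all values share the libraries. Other sums ran with Rgs5 as closely over the libraries, with r = 0.87 (fibroblast), 0.85 (Schwann cell) and 0.81 (endothelial). Within groups r was 0.76 for satellite glia, 0.68 for Schwann cells, 0.36 for endothelial cells and 0.20 for fibroblasts. The pericyte genes Abcc9, Cspg4 and Notch3 were not analysed here. All 5 endothelial and all 5 fibroblast markers measured were also lower in α9k1-naive. Kcnj8 had a mean of only 0.38 there. The part of these cells in the change of Rgs5 was not tested.

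Crush in the GFP groups was accompanied by a fall of 2 of the 7 members, Rgs5 and Rgs16, and by no rise. Over all genes 7.39% were higher and 15.7% lower, and 11% and 20.1% without the covariates, where the same 2 members were called. Groups did not overlap for both genes, as for 19.8% of all genes. Centring the libraries on their medians shifted the median log2FC over all genes from -0.08 to 0.06. In that scaling 60.7% of all calls were higher rather than 32%, and with quantile normalization 46.8%, but both members stayed lower, and with median centring Rgs7 was called higher.

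Rgs5 fell 2.33-fold with crush (log2FC = -1.22 ± 0.23, adjusted p = 0.00366), to 2.86, 2.47, 3.43 and 3.15 in the 4 GFP-crush libraries. Here too the pericyte list fell, with 6 of 8 markers lower, where 15.7% of all genes were lower. Other lists fell as well, with 4 of 5 fibroblast and 5 of 6 satellite glia markers lower. None of the 5 endothelial markers passed, 1 of 8 Schwann cell markers was higher and 1 lower, and 9 of 12 macrophage markers were higher. Rgs16 fell 1.96-fold (log2FC = -0.97 ± 0.31, adjusted p = 0.0502). All 4 GFP-crush libraries were below the lowest GFP-naive library for both genes, with an exact permutation p of 0.016 for each, the lower limit for 4 against 5 libraries. Without the low GFP-crush replicate 1 the log2FC of Rgs16 was -0.59 and still called. Over the 19 fits that left out a library, the call was lost only without replicate 3 of GFP-naive, the highest naive library. The call of Rgs16 was also lost in the fit of the 2 groups alone.

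In the α9k1 groups, crush was accompanied by a rise of Rgs5 and Rgs7, and by no fall, among 7 members. Over all genes 4.47% were higher and 5.27% lower. Without the covariates, 3 members were higher (Rgs5, Rgs7 and Rgs16) and 2 lower (Rgs4 and Rgs10), where 28.5% of all genes were higher and 27.1% lower. Groups did not overlap for Rgs16, which was higher, and for Rgs10, which was lower, as for 33.4% of all genes.

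Rgs7 belongs to the R7 group, which is abundant in neurons and acts on Gi/o subunits. It rose 1.82-fold in α9k1-crush (log2FC = 0.86 ± 0.28, adjusted p = 0.0847), from between 5.45 and 6.07 with a median of 5.79 in α9k1-naive. A single α9k1-crush library, at 6.06, lay within the α9k1-naive range. The exact permutation test gave p = 0.019. The call was kept in 8 of 19 fits that left out a library, namely replicate 2 of α9k1-crush, 3 or 5 of α9k1-naive, 1 or 3 of GFP-crush, or 2, 3 or 5 of GFP-naive. Rgs7 was at 5.33, 5.56, 5.29, 5.54 and 5.41 in GFP-naive, so its group means ran upward in the order GFP-naive, GFP-crush, α9k1-naive and α9k1-crush, with neighbouring groups overlapping in each step.

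Partners of R7 proteins were examined beside Rgs7. Gpr158, an orphan receptor that anchors RGS7 with Gβ5 at the membrane, fell in α9k1-naive (log2FC = -1.59 ± 0.18, adjusted p = 1.92e-05) and rose 4.73-fold with crush in the α9k1 groups (log2FC = 2.24 ± 0.33, adjusted p = 0.00194). Its mean levels were 3.76 in GFP-naive, 2.58 in α9k1-naive and 5.07 in α9k1-crush. Of the 3 R7 partners measured, the other 2 passed in none of the 4 comparisons with the covariates. Without them, 2 of the 3 were lower in α9k1-naive, 3 were higher in α9k1-crush over α9k1-naive and 2 were higher in α9k1-crush versus GFP-crush. Over all genes 29.5%, 28.5% and 29.6% passed in the same directions. Neuron markers moved in these comparisons too. In α9k1-naive 4 of 12 were lower and 1 higher, led by the neurofilament genes Nefm and Nefl (log2FC = -2.42 ± 0.21 and -2.10 ± 0.23), and with crush in the α9k1 groups 3 were higher and none lower (log2FC = 2.71 ± 0.38 and 2.73 ± 0.42 for the same 2 genes). In GFP-crush versus GFP-naive 6 were higher and 1 lower, where none of the R7 partners passed. The neuron sum ran from 13.3 to 13.6 in GFP-naive, 12.6 to 13 in α9k1-naive, 13.9 to 14.3 in GFP-crush and 13.8 to 14.3 in α9k1-crush. The part of neuron content in the values of Gpr158, or in those of Rgs6, Plcb1 and Htr1d given further on, was not tested.

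Rgs5 rose 2.92-fold in α9k1-crush over α9k1-naive (log2FC = 1.54 ± 0.41, adjusted p = 0.0405), to 2.45, 3.02, 1.68 and 2.54. The lowest of these lay within the α9k1-naive range, and the permutation test gave p = 0.019. The pericyte markers Kcnj8 and Vtn rose as well (log2FC = 2.17 ± 0.42 and 1.77 ± 0.40), and the other 6 did not pass. Without the covariates 3 of the 8 were higher and 1 lower. The ranges of the summed level given above overlapped between these groups, and Tagln, its most abundant gene, had a mean of 3.44 in α9k1-crush and 4.59 in α9k1-naive. The call of Rgs5 was lost without replicate 1 or replicate 4 of α9k1-naive, in fits where the log2FC of Rgs5 lay between 1.23 and 1.72 over all libraries left out. In the fit of the 2 groups alone no member passed.

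Rgs16 and Rgs10 showed the clearest separation of α9k1-crush from α9k1-naive in the deposited values. Rgs16 had means of 4.34 ± 0.33 (SD, n = 4) in α9k1-crush and 3.55 ± 0.28 (SD, n = 6) in α9k1-naive. Rgs10, a small R12 member known for its high level in microglia and other myeloid cells, had 6.36, 7.35, 6.78 and 6.92 in α9k1-crush, below the range of 7.43 to 8.25 in α9k1-naive. Both had an exact permutation p of 0.0095, the lower limit for 4 against 6 libraries. Satellite glia markers moved with Rgs10. Their sum ran from 8.61 to 9.09 in α9k1-crush and from 10.5 to 10.8 in α9k1-naive, with 5 of 6 lower, led by Fabp7 (log2FC = -2.28 ± 0.26). Over the 19 libraries Rgs10 had r = 0.81 with this sum, -0.72 with the neuron sum and -0.38 with the macrophage sum, and within groups 0.38, -0.32 and 0.03. Of the macrophage markers, 2 of 12 were higher in α9k1-crush than in α9k1-naive and none lower. The part of these cells in the values of Rgs10 was not tested. With the covariates neither Rgs16 nor Rgs10 passed (log2FC = 0.77 ± 0.56, adjusted p = 0.462 for Rgs16, and -0.91 ± 0.45, adjusted p = 0.255 for Rgs10), and without them both did (adjusted p = 0.0106 and 0.00083).

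Rgs4 and Rgs3, R4 members that limit Gi and Gq signaling, were the most abundant of the family with Rgs10. Rgs4 is a widespread neuronal RGS gene, and its mean over all libraries was at the 97.4th percentile of all genes, that of Rgs10 at the 93.3rd and that of Rgs3 at the 86.8th. Rgs4 had 8.99, 8.72, 8.98, 8.70 and 8.72 in GFP-naive and 7.55, 8.06, 8.74 and 8.69 in GFP-crush. In α9k1-crush it had 7.73, 8.91, 8.12 and 7.94, and in α9k1-naive 8.50 to 9.51 with a median of 9.02. The crush groups were thus lower on average for both vectors, but 2 GFP-crush libraries and 1 α9k1-crush library lay within or near the naive ranges. With the covariates no difference of Rgs4 passed, and without them the difference of the α9k1 groups did (log2FC = -0.82, adjusted p = 0.0105, and p = 0.029 in the exact permutation test).

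Rgs3 passed in no comparison in either fit. Its mean was 6.64 ± 0.20 (SD) over the 5 GFP-naive libraries and 6.98 ± 0.46 over the 6 α9k1-naive libraries. With crush it was 6.31 ± 0.37 over the 4 GFP libraries and 6.62 ± 0.21 over the 4 α9k1 libraries. All 4 ranges overlapped. Rgs12, a long R12 protein with further domains for scaffolding, was low, at the 12.5th percentile. It had means between 2.59 and 3.13 in the 4 groups, with SDs of 0.27 to 0.52, and passed in none of its 3 tests in either fit. The 95% interval of its naive α9k1 difference was -0.72 to 0.52.

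The order of levels over all libraries was Rgs4, Rgs10, Rgs3, Rgs7, Rgs2, Rgs16, Rgs12 and Rgs5, with means from 8.62 down to 2.60 on the length-normalized log2 scale. Rgs12 and Rgs5, at 2.74 and 2.60, were closer than the SD between libraries of a group. Rgs5 was last in both α9k1 groups but not in the GFP groups. It was at a mean of 3.83 in GFP-naive, above Rgs16 (3.02) and Rgs12 (2.64). In GFP-crush it was at 2.98, above Rgs12 (2.59) and Rgs16 (2.24). The abundant members moved together within groups. After the group means were removed, Rgs4 and Rgs10 had r = 0.82 over the 19 libraries, Rgs3 and Rgs10 had 0.80 and Rgs3 and Rgs4 had 0.76. Rgs2 was not close to any of these, with values of -0.22 for Rgs3, 0.18 for Rgs4 and -0.01 for Rgs10.

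Genes with a pattern most like that of Rgs2 were ranked by Pearson's r over the 19 libraries. Rgs1 came first with r = 0.94 (Spearman's rho = 0.91), followed by Rnf11 (0.89), Tnfaip6 (0.88) and Cd83 (0.87). After the group means were removed, r was 0.75 for Rgs1, 0.71 for Rnf11, 0.37 for Tnfaip6 and 0.69 for Cd83. Among the members, Rgs16 ranked 309 with r = 0.74 and Rgs7 1392 with 0.55, and within groups these were 0.13 and -0.22. Fermt1 ranked 10 with r = 0.86. These values are descriptions of libraries that share their depth and their groups, and Rgs2 was selected on the differences between those groups.

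Rgs1, an R4 gene of leukocytes and activated immune cells, was outside the family as chosen. Since it came first in likeness to Rgs2, its α9k1 differences are given as a description. It was 5.11-fold higher in α9k1-naive than in GFP-naive (log2FC = 2.35 ± 0.30) and 7.57-fold higher in α9k1-crush than in GFP-crush (log2FC = 2.92 ± 0.65). The α9k1-crush libraries had 7.01, 7.69, 6.94 and 7.48 against 4.97, 4.09, 4.44 and 4.89 in GFP-crush. No α9k1 library reached down to the GFP libraries in either comparison. In the GRCm38 annotation, Rgs1 and Rgs2 lie 238 kb apart on chromosome 1 on the same strand. None of the genes of the table lies between them, but Rgs13, which was not analysed here, does.

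The macrophage markers were high in 3 of the 4 groups. The summed level of the 12 measured ran from 8.06 to 8.59 in GFP-naive, 9.35 to 9.87 in α9k1-naive, 9.75 to 10.3 in GFP-crush and 9.42 to 10.3 in α9k1-crush. In α9k1-naive versus GFP-naive, 9 of these 12 were higher, as were 9 in GFP-crush versus GFP-naive, where Rgs1 had log2FC = -0.11 ± 0.30 and Rgs2 -0.39 ± 0.24. In α9k1-crush versus GFP-crush none of the 12 passed. Within groups the sum had r = 0.74 with Rgs2 and 0.78 with Rgs1. Other marker sums ran with them as well, with r = 0.70 (Schwann cell), 0.63 (satellite glia) and -0.61 (neuron) for Rgs2 and 0.61 (Schwann cell) and -0.59 (neuron) for Rgs1. Macrophage genes Cx3cr1, Itgam and Mrc1 and the 6 lymphocyte markers were not analysed here, and the part of such cells in the values of Rgs1 and Rgs2 was not tested.

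Immediate early genes were higher with α9k1, as Rgs2 and Rgs16 were, and lower with crush. The list holds 27 rapidly induced and dissociation-responsive genes, of which 24 had values. In α9k1-naive 22 were higher and none lower, led by Arc, Myc and Atf3 with log2FC = 3.19 ± 0.27, 3.01 ± 0.21 and 2.99 ± 0.17. In α9k1-crush versus GFP-crush 16 were higher and none lower. The median log2FC of the list there was 2.12, and 1.32 without the covariates, beside 2.53 and 2.10 for Rgs16. In α9k1-crush versus α9k1-naive none was higher and 7 were lower (1 and 23 without the covariates), where Rgs2 had log2FC = 0.55 ± 0.43 and Rgs16 0.77 ± 0.56. Crush in the GFP groups lowered 22 of them, where Rgs16 fell and Rgs2 had log2FC = -0.39 ± 0.24. The summed level of the list was 12.4 to 12.7 in GFP-naive, 14 to 14.4 in α9k1-naive, 11.2 to 11.6 in GFP-crush and 12.7 to 13.3 in α9k1-crush. The lowest α9k1-crush library thus lay within the GFP-naive range of the list and the other 3 above it, while every α9k1-crush library was above every GFP-naive library for Rgs2 and for Rgs16. Within groups the sum had r = 0.60 with Rgs2 and 0.37 with Rgs16, and Rgs16 had r = 0.60 with the satellite glia sum. Dissociation of the ganglia can induce such genes, and its part was not tested.

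**Figure D3:**
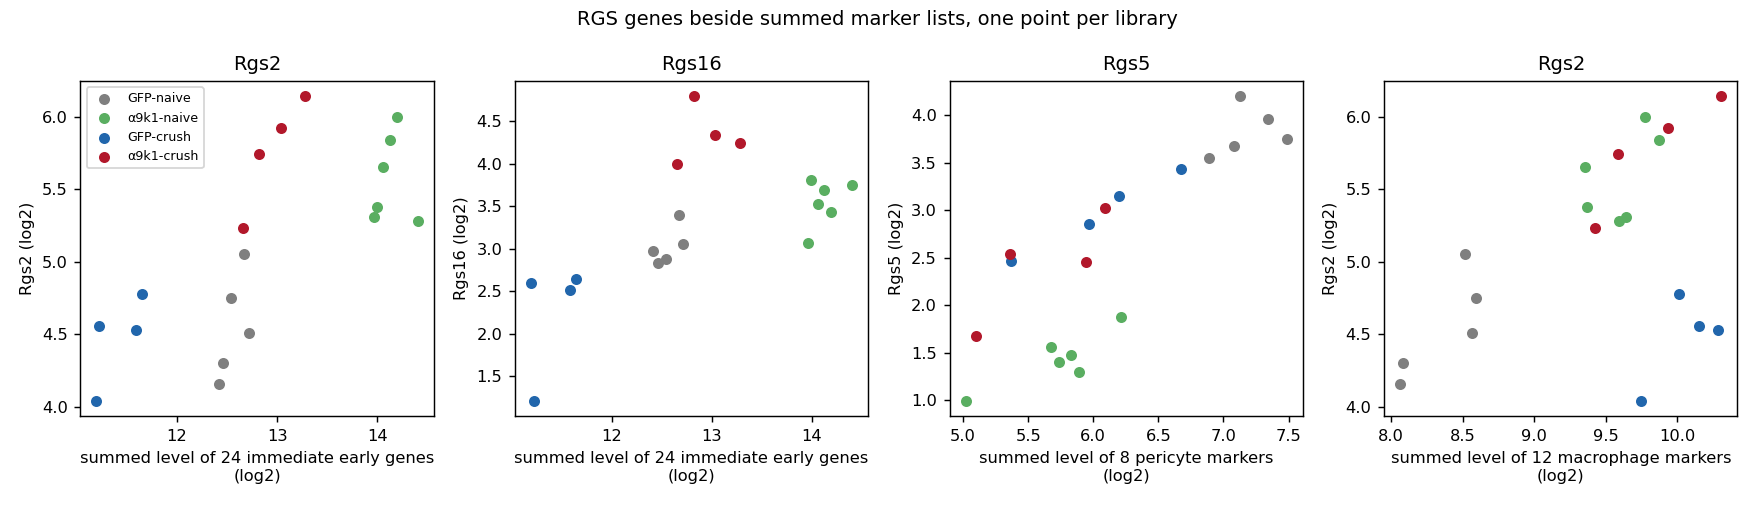
Log2 levels of Rgs2, Rgs16 and Rgs5 (vertical axes) against log2 summed levels of marker lists (horizontal axes), with 1 point per library, coloured by group. Rgs2 lies higher in α9k1-crush than in GFP-crush over overlapping ranges of the macrophage sum, which is lower in GFP-naive than in the other 3 groups, every α9k1-crush library lies above every GFP-naive library for Rgs2 and Rgs16, with 1 of the 4 within the GFP-naive range of the immediate early sum and 3 above it, and Rgs5 is plotted against the pericyte sum, with α9k1-naive lowest for Rgs5.

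Of the other 5 Rgs genes measured, 3 were called in α9k1-naive, 1 higher and 2 lower, where 11.4% and 17.6% of all genes were. Rgs6, a neuronal R7 gene, fell in α9k1-naive (log2FC = -0.94 ± 0.27, adjusted p = 0.0223) and rose 4.89-fold with crush in the α9k1 groups (log2FC = 2.29 ± 0.49, adjusted p = 0.014). Its α9k1-crush libraries had 3.61, 3.04, 4.07 and 4.07 against 1.26 to 2.18 in α9k1-naive, without overlap. Rgs11, another R7 gene, fell in α9k1-naive (log2FC = -0.38 ± 0.10, adjusted p = 0.0152), and Rgs19, of the RZ group that acts on Gi and Gz, rose (log2FC = 0.62 ± 0.22, adjusted p = 0.0602). Rgs17 and Rgs20, also of the RZ group, passed in no comparison with the covariates. Without them Rgs17 was lower in α9k1-naive (log2FC = -0.68, adjusted p = 0.0286) and higher in α9k1-crush than in α9k1-naive (log2FC = 1.45, adjusted p = 0.000123), and Rgs20 was higher in the second of these (0.68, adjusted p = 0.021). Rgs11 was then lower in α9k1-crush than in α9k1-naive and in GFP-crush (log2FC = -0.32 and -0.53, adjusted p = 0.0189 and 0.0012), and Rgs6 was higher in α9k1-crush than in GFP-crush (0.77, adjusted p = 0.00842). Of 7 measured genes of RGS-domain proteins outside the Rgs names, Axin1, a scaffold of Wnt signaling, and Arhgef1, a RhoGEF, fell in GFP-crush (log2FC = -0.79 ± 0.17 and -0.59 ± 0.21). None passed in the other 3 comparisons with the covariates, and 2 to 4 of the 7 passed in each without them, where the shares of all genes were those given above for the fits without covariates.

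**Figure D4:**
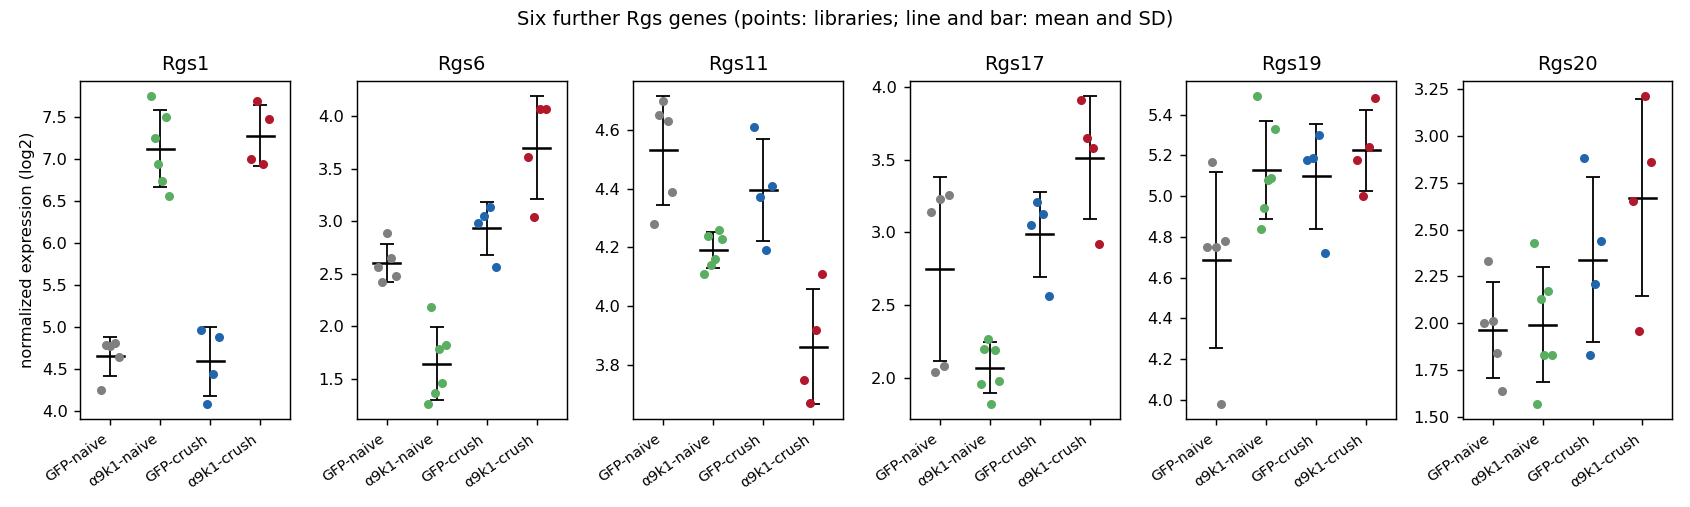
Normalized expression (log2, vertical axis) of the 6 further Rgs genes in each library, by group, with the mean and SD as a line and bar. Rgs1 separates α9k1 from GFP libraries as Rgs2 does, and Rgs6 is lowest in α9k1-naive and highest in α9k1-crush.

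The genes of the family lie in part together. Rgs4 and Rgs5 are neighbours on chromosome 1, 45.7 kb apart on opposite strands. Their values had r = -0.07 over the libraries and 0.42 after the group means were removed. Rgs16 lies 40 kb from Rgs8 on the same strand of that chromosome and 9736 kb from Rgs2, with 26 genes of the table in between.

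The other genes of the pathway were counted in the same way, list by list. The lists hold few genes, so their counts can be read only beside the shares of all genes. The shares for α9k1-crush versus GFP-crush without the covariates were 29.6% (higher) and 28.3% (lower), and the counts of each list in that fit stand beside these. With crush, 7.39% of all genes were higher and 15.7% lower in the GFP groups, against 4.47% and 5.27% in the α9k1 groups. Of 13 Gα genes measured, 2 were higher and none lower in α9k1-naive (5 and none without the covariates), where 11.4% of all genes were higher and 17.6% lower. Of these, Gna13, which signals to RhoA, rose 2.55-fold (log2FC = 1.35 ± 0.16, adjusted p = 2.38e-05) and Gnaz rose 1.30-fold (adjusted p = 0.0776). Gnaq, which encodes the Gαq target of Rgs2, fell in GFP-crush (log2FC = -0.43 ± 0.17, adjusted p = 0.0976), where 1 of 13 was lower with the covariates and 6 without, and Gnai2 fell in α9k1-crush over α9k1-naive (log2FC = -0.57 ± 0.19, adjusted p = 0.0872). In α9k1-crush versus GFP-crush none of the 13 passed with the covariates, and 6 were higher and 1 lower without.

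Of 14 Gβ and Gγ genes, 1 was higher and 2 lower in α9k1-naive, 2 were higher and 3 lower in GFP-crush, and 1 was higher and 2 lower in α9k1-crush over α9k1-naive. These lower genes were Gng8 and Gng10 (log2FC = -1.43 ± 0.40 and -0.98 ± 0.30). Gng11 ran with Rgs5 in all 3 tested comparisons. It fell in α9k1-naive and in GFP-crush (log2FC = -1.62 ± 0.21 and -1.14 ± 0.21) and rose in α9k1-crush over α9k1-naive (1.52 ± 0.38). Gng3, a neuronal Gγ gene, fell in α9k1-naive and rose in GFP-crush (log2FC = -0.45 ± 0.11 and 0.62 ± 0.11). None of the 14 passed in α9k1-crush versus GFP-crush with the covariates, and 2 were higher and 7 lower without.

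Among effectors, 6 of 17 listed genes had values. Plcb1, the phospholipase C that Gαq activates, fell in α9k1-naive (log2FC = -1.34 ± 0.34, adjusted p = 0.0113) and rose 5.82-fold with crush in the α9k1 groups (log2FC = 2.54 ± 0.61, adjusted p = 0.0264). Adcy7, an adenylyl cyclase, rose in α9k1-naive (log2FC = 0.79 ± 0.17), and Adcy3 fell in GFP-crush (-0.79 ± 0.23). Of the GoLoco group, 1 of 6 was called, with Gpsm2 lower in GFP-crush, a share near that of all genes. Of 5 receptor kinases and arrestins, Arrb1 rose in α9k1-naive and Grk4 fell in GFP-crush (log2FC = 0.73 ± 0.25 and -0.82 ± 0.24).

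The differences among receptors spanned a wide range. Of 10 Gi/o-coupled receptors measured, Htr1d, a serotonin receptor, fell in α9k1-naive (log2FC = -2.53 ± 0.29, adjusted p = 1.9e-05) and rose 16.3-fold with crush in the α9k1 groups (log2FC = 4.03 ± 0.52, adjusted p = 0.00119). Npy1r, a receptor of neuropeptide Y, went the other way, with log2FC = 1.92 ± 0.49 in α9k1-naive and -2.83 ± 0.89 with crush in the α9k1 groups. Npy1r also fell with crush in the GFP groups (log2FC = -1.36 ± 0.50, adjusted p = 0.0789). The GABA-B receptor gene Gabbr1 fell with crush in both vectors (log2FC = -0.60 ± 0.11 and -0.68 ± 0.20). Of 6 Gq-coupled receptors, 1 was higher and 2 lower in α9k1-naive, and none higher and 2 lower in GFP-crush. In α9k1-crush over α9k1-naive 1 was higher and 1 lower. Among these, P2ry2, a nucleotide receptor, fell in α9k1-naive and rose with crush in the α9k1 groups (log2FC = -1.17 ± 0.26 and 1.69 ± 0.48). Ednrb fell with crush in both vectors (log2FC = -0.80 ± 0.20 and -1.19 ± 0.35). No receptor of either list passed in α9k1-crush versus GFP-crush with the covariates, where 5 Gi/o and 2 Gq receptors were higher and 2 Gi/o receptors lower without them.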

How the data were processed

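RNA-seq was performed on 19 libraries of sorted DRG cells. Per the study's methods, the authors used STAR to map reads to mouse mm10/GRCm38 and Salmon to count them, although the methods name rats and trypsin where the labels name mice and papain. Between 47.5% and 54.1% of reads aligned, with mismatches at 3.87% to 4.05% of bases. The deposited log2 values were made by the authors from counts, with cqn correcting for length and depth. Genes under 10 reads in more than 80% of samples had been removed by them. The table carries no names, so genes were matched by the order of the authors' gene table, which was checked through that table's mean expression (r = 0.959, and at most 0.0984 with rows shifted). The authors' fold changes and p-values in that table were not used. Library metrics deposited by the authors, from Picard, are counts, fractions, percent values and ratios, and 5 of their columns on duplicates appear shifted by a column but entered the covariates as deposited.

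The metrics (48 columns, scaled) were reduced to 3 principal components, used as covariates in limma 3.58.1 (R 4.3.3) with the 4 group means. Batch is a further term of the study's model and is not given in the labels. Genes were called at an adjusted p under 0.1. Exact permutation tests used scipy 1.17.1. Scripts were tested on simulated data. The members and gene lists were chosen with earlier results of these data known. Named genes are the members, the other RGS-domain genes, up to 4 called genes of each list with the largest change, the 5 most like Rgs2 (1 of which is not reported here), and Fermt1 and Itga9. Axin2 and other listed genes without values were not analysed here. Alternatives were fits without covariates, of 2 groups, with a filter on the lowest 25% of genes, other scalings, array weights, an intensity trend, a replicate block, covariates without the shifted metrics (added after the data were seen) and leaving out each library. Promoters came from RefSeq.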

Additional observations from a re-analysis of the deposited data

Results flagged for a closer look

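Among 32 groups of libraries (8 members in 4 groups), 1 held a library far from the rest by Dixon's criterion, where chance alone gives about 1 in 20. Rgs16 was at 1.21 in GFP-crush replicate 1, against 2.52 to 2.64 in the other 3 libraries of that group. Rgs5 had a different α9k1 effect with and without crush. The effect after crush minus that in naive ganglia was 2.76 ± 0.47 (log2, SE) with the covariates and 1.84 without, and it is given as a description because it contains the comparison that the choice of Rgs2 used. Rgs5 was the only 1 of 8 members past the threshold for this interaction with the covariates, as were 278 genes (2.2%) of the table. Without the covariates 2 of the 8 passed, Rgs5 and Rgs16 (1.58 ± 0.34, and 1.74 ± 0.64 with them), where 39.4% of all genes did.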

How the results depend on the processing

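The called members numbered 2 of 7 in α9k1-naive versus GFP-naive, 2 of 7 when GFP-crush was set against GFP-naive, 2 of 7 for α9k1-crush against α9k1-naive, and 1 of 8 in α9k1-crush versus GFP-crush, where the 1 was Rgs2. Rgs2 was chosen by this comparison, so its part in these counts is a description (it was counted in 4 of 19 fits that left out a library). Without covariates the last pair gave 5 and 5, where 28.5% and 29.6% of all genes were higher and 27.1% and 28.3% lower. Fits of the 2 groups alone gave 1 (Rgs5) for GFP-crush and, by limma, 0 in both comparisons of α9k1-crush. The filter on low values left 1 in each of the first 3 comparisons, because it removed Rgs5. In α9k1-crush versus GFP-crush, quantile normalization, median centring and covariates built without the 5 duplicate metrics whose names look shifted (added after the data were seen) gave 0 by limma, where the fit without covariates gave 5, and array weights gave 2 (Rgs2 and Rgs16). The intensity trend changed no count. Leaving out each library in turn gave 1 to 2 in α9k1-naive, 1 to 3 in GFP-crush, 0 to 3 in α9k1-crush versus α9k1-naive and 0 to 1 in α9k1-crush versus GFP-crush. Except for the filter, the causes were not tested.

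The replicate block gave 2, 3, 1 and 1 in the order above, calling Rgs4 and Rgs5 in α9k1-naive, Rgs4, Rgs5 and Rgs16 in GFP-crush, Rgs10 in α9k1-crush versus α9k1-naive, and Rgs2. Same-numbered libraries showed little common deviation (r = -0.269 to 0.149 over 25 pairs, 4 of them over 0.1). These values cannot settle whether the numbers mark pairs or batches, and the labels do not say.

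In the 3 comparisons other than α9k1-crush versus GFP-crush, quantile normalization, array weights, the intensity trend and the covariates without the shifted metrics called the same members. No value called with the covariates changed sign, but Rgs5 in α9k1-crush versus GFP-crush went from 0.85, not called, to -0.56, called lower, without them. Library depth was not retained in the log2 values.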
